A study of Mus musculus with 6 samples.

Results

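The genes described here are 34 genes that airway ciliated cells use to build and run motile cilia, chosen by symbol from a list of such genes out of the 47069 genes counted. Of these, 33 were found by their symbol and Deup1 by its Ensembl gene ID, since its row carries the older symbol Ccdc67. The lungs came from adult mice at ZT10, 10 h after lights on, in a 12 h light and 12 h dark cycle, with 1 library per mouse. The KO group (KO4, KO5 and KO6) was the B6.129S7-Zpbp2 tmZuk/Mmjax strain, in which exons 1 to 3 of Zpbp2 are deleted on a C57BL/6J background, and the WT group (WT4, WT5 and WT6) was C57BL/6J mice bred in the same colony. Both groups were untreated. The study used both sexes, and the sex of each mouse, its age beyond adult and the piece of lung taken were not given in the sources used here.

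Multiciliated cells line the airways and carry many motile cilia that sweep mucus out of the lung. Each motile cilium holds an axoneme, a ring of microtubule doublets around a central pair, with dynein arms that make the doublets slide, nexin links that turn sliding into bending, and radial spokes that pass signals from the central pair to the arms. The cells are set up in steps: Mcidas and its relatives start the multiciliated fate, Deup1 helps to make the many basal bodies, and the transcription factors Foxj1, Rfx2 and Rfx3 switch on the genes of the axoneme. In bulk lung RNA a lower value can come from fewer ciliated cells or from less RNA in each of them, and these cannot be told apart here.

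RFX factors bind the X-box, an inverted repeat found before many cilium genes. Promoter sequences from RefSeq (GRCm38.p6, from 250 bases before to 50 bases after each transcription start) were found for 29 of the 34 genes, and the X-box consensus, searched on both strands, was present in 7 of them. That is 24.1% of the ciliated cell genes with a promoter, beside 1.75% of 27025 genes with one. In a wider list of motile cilium genes the X-box was present in 13 of 67 promoters (19.4%), so that it was not particular to the 34 genes. The matches are printed because the choice of genes did not use them. The first base of each lay between 18 and 103 bases before the RefSeq start. Each line runs 5′ to 3′ on the strand of the gene, with the X-box in capitals, and stops before the first exon of the gene's GENCODE model, except that of 1110017D15Rik, which lies within the gene before a second RefSeq start. Only the X-box itself is given for Dnaic1 and Dynlrb2, whose GENCODE models begin at or within it.
Dnaic1 (chr4:41569775-41569787, plus strand): GTTGCTGGGTAAC
Dnaic2 (chr11:114727356-114727407, plus strand): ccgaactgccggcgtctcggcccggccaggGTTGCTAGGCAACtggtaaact
Dynlrb2 (chr8:116504964-116504976, plus strand): GTTGCCTAGCAAC
Hydin (chr8:110266926-110266976, plus strand): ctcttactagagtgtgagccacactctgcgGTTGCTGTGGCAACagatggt
Spag16 (chr1:69826837-69826910, plus strand): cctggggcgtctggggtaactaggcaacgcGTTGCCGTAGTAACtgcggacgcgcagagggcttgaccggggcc
Lrriq1 (chr10:103236323-103236371, minus strand): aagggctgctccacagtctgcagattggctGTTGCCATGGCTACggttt
1110017D15Rik (chr4:41507765-41507812, minus strand): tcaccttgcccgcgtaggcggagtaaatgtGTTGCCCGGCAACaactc

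The shorter motif GTTGCC, searched on both strands and able to overlap an X-box, was present in 19 of the 29 promoters (65.5%), beside 37.3% of the wider list and 14.1% of all genes with a promoter. TGTTTAC, a site bound by forkhead factors such as Foxj1, was present in 2 of 29 promoters (6.9%), those of Ak7 and Sntn, beside 4.05% of all genes. A match describes the letters only and was not tested for binding. Foxj1, Rsph1, Rsph4a and Tppp3 had no entry, and the Spag6l entry was left aside because it belongs to another locus than the row of that symbol in the counts.

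The libraries held 19981428 to 46796908 counts each, and 3 counts correspond to 0.0629 to 0.148 CPM, a floor that covers counting error only. Zpbp2, the gene deleted in the KO strain, was counted once in WT4 and 2 times each in WT5 and WT6, and it had 0 counts in each KO mouse, so that all mice were below that floor. All 34 ciliated cell genes passed the filter on low counts and were tested among 17037 genes. One library stood apart. In KO5 the B cell genes were highest in 10 of 10, with a summed level of 1142 CPM against 145 to 161 CPM in WT mice and 273 and 325 CPM in KO4 and KO6. Results are therefore given with and without KO5.

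The ciliated cell genes did not pass the test in either direction, and the clearest pattern among them was a low level in 1 KO mouse. With edgeR's quasi-likelihood test and Benjamini-Hochberg adjustment, 0 of the 34 genes had an adjusted p-value of at most 0.05, beside 6.39% of all genes tested (3.72% higher and 2.67% lower in KO mice). None reached the combination of that p-value with a log2 fold change of 1.5 in size, which 0.64% of all genes reached. At an unadjusted p below 0.05 there were 2, Foxj1 and Mns1, beside 25.5% of all genes. DESeq2 called these 2 genes, beside 11.2% of all genes, and edgeR without the filter on low counts called Mns1 (adjusted p = 0.0294), beside 4.89% of all genes. The log2 fold change of KO minus WT was negative for 28 genes and positive for 6, with a median of -0.12 beside 0.00 over all genes tested.

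Each mouse was then set against the WT mean. The median over the 34 genes was 90.1%, 100% and 111% of the WT mean in WT4, WT5 and WT6, and 104%, 72.0% and 101% in KO4, KO5 and KO6. KO4 and KO6 thus lay inside the WT range and KO5 below it. Their summed level was 1422, 1608 and 1753 CPM in the WT mice and 1554, 1095 and 1542 CPM in the KO mice. KO5 held the lowest value of the 6 mice for 29 of the 34 genes (85.3%, beside 22.3% of all genes tested) and the highest for 0 (beside 25.6%). WT6 held the highest for 21 (61.8%, beside 18%). KO5 was also the deepest library, and 52208 of its counts fell on the ciliated cell genes, against 31222 to 54197 counts in the other mice. Without KO5, 18 genes were positive, 15 negative and 1 at 0.00, the median was 0.02, the lowest adjusted p-value in the edgeR test was 0.0766, and 0 of 34 genes were called, beside 5.48% of all genes.

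**Figure D1:**
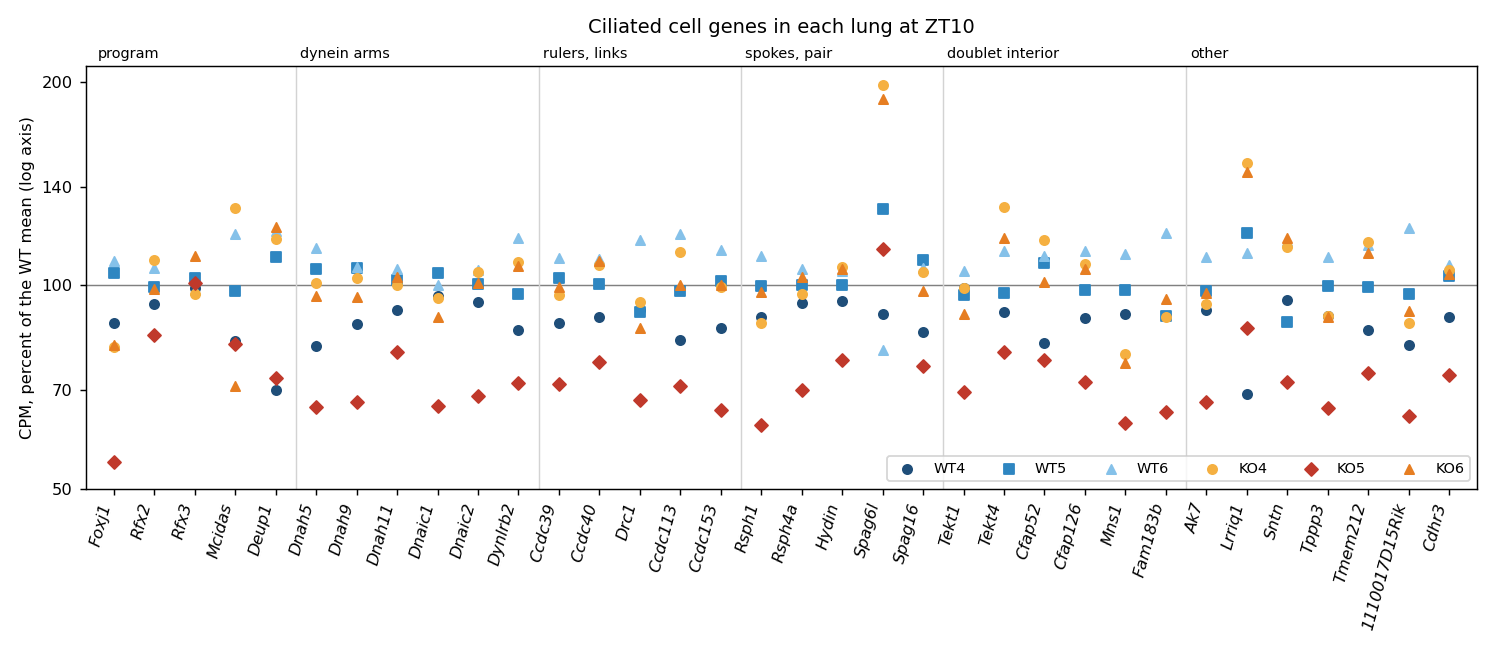
CPM of each of the 34 genes in each mouse as a percent of the WT mean (y axis, log scale), with the genes along the x axis grouped by role, WT mice in blues and KO mice in orange and red. The red diamonds of KO5 are the lowest point for 29 of 34 genes, while KO4 and KO6 mix with the WT mice for most genes other than Foxj1 and Mns1.

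Among the genes described here that set up the program, Foxj1 was the one that was lower in all KO mice. Gmnc, Ccno and Ccdc78, which belong to a wider list of motile cilium genes, were also lower in all KO mice and are described under other observations. Foxj1, the master transcription factor of motile cilia (chromosome 11 from 116330704 to 116335399 in GRCm38, minus strand), stood at 125, 148 and 154 CPM in WT4, WT5 and WT6 and at 115, 77.7 and 116 CPM in KO4, KO5 and KO6. The groups did not overlap, and KO5 was far below the other KO mice. The means were 142 ± 15 CPM in WT and 103 ± 21.9 CPM in KO mice (SD, n = 3 each), a log2 fold change of -0.47 (SE 0.160). In edgeR's quasi-likelihood test p was 0.0217 and the adjusted p-value 0.127, and the two-sided exact permutation test gave p = 0.1, the smallest that 3 mice against 3 allow. The DESeq2 adjusted p-value was 0.0240, and the edgeR and DESeq2 alternatives together ranged from 0.0240 to 0.349. Leaving out KO5 gave -0.30 (adjusted p = 0.113).

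Rfx2 and Rfx3, the RFX factors that bind the X-box, did not follow Foxj1. Rfx3 was the most even of the 34 genes, with 24.8, 25.6 and 24.6 CPM in the WT mice and 24.3, 25.2 and 27.6 CPM in the KO mice, and its highest value was 1.13 times its lowest. In KO5, where most of the other genes were lowest, Rfx3 sat within the WT range. Rfx2 had 21.3 ± 1.28 CPM in WT and 20.7 ± 2.59 CPM in KO mice, with a log2 fold change of -0.04 (SE 0.105).

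Mcidas and Deup1 were rare in these libraries. Mcidas, a coactivator that starts the multiciliated fate, had 10, 10 and 18 counts in the WT mice and 13, 19 and 7 counts in the KO mice. At this depth no difference was detectable, and the log2 fold change was -0.13 (SE 0.329). Deup1, a scaffold of the structures that make basal bodies, had 71, 94 and 152 counts in the WT mice and 98, 142 and 101 counts in the KO mice, with groups that overlapped and a log2 fold change of 0.04 (SE 0.275).

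The dynein arm genes were lower on average in KO mice in 6 of 6 cases, by log2 values between -0.26 and -0.08, and none passed the test. KO5 was the lowest mouse for all 6. Without KO5, Dnah11, Dnaic2 and Dynlrb2 were positive, with log2 fold changes of 0.02, 0.03 and 0.10. Dnah5, Dnah9 and Dnaic1 were then at -0.02, -0.01 and -0.11. Dnah5, a heavy chain of the outer arm, had 76.6, 99.5 and 107 CPM in the WT mice and 95.1, 62.2 and 90.9 CPM in the KO mice, so that KO4 and KO6 sat among the WT mice. Dnah9, another outer arm heavy chain, behaved alike, at 51.0 ± 5.46 and 45.1 ± 9.57 CPM, and Dnah11 was at 35.2 ± 2.45 and 33.2 ± 4.47 CPM. Dnaic1, an intermediate chain, was the only dynein gene with groups that did not overlap, at 16, 17.3 and 16.6 CPM in the WT mice and 15.9, 11.0 and 14.9 CPM in the KO mice. Its log2 fold change was -0.26 (SE 0.141, edgeR adjusted p = 0.293), and KO4 lay just under WT4. Dnaic2, the partner intermediate chain, had a log2 fold change of -0.14 (SE 0.157), and Dynlrb2, a light chain, -0.08 (SE 0.181).

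The genes of the rulers and nexin links gave the same picture, with 5 of 5 negative log2 fold changes between -0.28 and -0.04 and KO5 lowest for all 5. Without KO5, Ccdc40 and Ccdc113 were positive at 0.11 and 0.08, and Ccdc39, Drc1 and Ccdc153 were at -0.03, -0.15 and -0.01. Ccdc39 and Ccdc40 form the ruler that sets the repeat of the axoneme. Ccdc39 had 56.8, 66.4 and 71.0 CPM in the WT mice and 62.5, 46.2 and 64.3 CPM in the KO mice, and Ccdc40 had 39.0, 43.7 and 47.6 CPM against 46.6, 33.5 and 47.3 CPM. Both pairs of groups overlapped. Drc1, a core part of the nexin link, was at 36.2 ± 5.23 and 30 ± 4.97 CPM, a log2 fold change of -0.28 (SE 0.147, edgeR adjusted p = 0.286). Ccdc113 and Ccdc153 had log2 fold changes of -0.09 (SE 0.194) and -0.18 (SE 0.173).

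Radial spoke and central pair genes were negative in 4 of 5 cases, and KO5 was lowest for 4. Without KO5, Rsph1 was at -0.11, Rsph4a at 0.00, Hydin at 0.08, Spag16 at 0.02 and the row of symbol Spag6l at 0.97. Rsph1, a protein of the spoke head, had 37.6, 41.8 and 46.3 CPM in the WT mice and 36.8, 26 and 41 CPM in the KO mice. KO6 lay inside the WT range, and the log2 fold change was -0.28 (SE 0.167, edgeR adjusted p = 0.333). Rsph4a, its neighbour in the spoke head, had a log2 fold change of -0.16 (SE 0.140). Hydin and Spag16, both central pair proteins, had -0.05 (SE 0.123) and -0.11 (SE 0.142).

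The row of symbol Spag6l was the exception, and its name is uncertain. It had 0.403, 0.575 and 0.356 CPM in the WT mice and 0.880, 0.503 and 0.839 CPM in the KO mice, with KO5 inside the WT range. The log2 fold change of 0.70 (SE 0.343, edgeR adjusted p = 0.253) was the highest of the 34. Its gene ID (ENSMUSG00000037708, chromosome 2) is named Spag6 in GENCODE release 21, while the gene named Spag6l there (ENSMUSG00000022783, chromosome 16) stands in the counts under the symbol Spag6. That gene, encoding a central pair protein, had 26.4 ± 1.68 CPM in WT and 24.7 ± 4.71 CPM in KO mice, with a log2 fold change of -0.10 (SE 0.142), with KO5 lowest. As paralogues the pair may have reads that match both, and the effect on these counts was not tested.

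Proteins that line the inside of the doublets made up the next 6 genes, with 5 negative and 1 positive log2 fold change and KO5 lowest for all 6. Without KO5, Tekt4, Cfap52 and Cfap126 were positive (0.30, 0.12 and 0.08) and Tekt1, Mns1 and Fam183b negative (-0.09, -0.37 and -0.12). Mns1, which is needed to assemble motile cilia and flagella, stood out with 30.6, 33.2 and 37.6 CPM in the WT mice and 26.7, 21.1 and 25.9 CPM in the KO mice. All KO mice were below all WT mice, KO4 and KO6 included. The means were 33.8 ± 3.57 and 24.6 ± 3.07 CPM (SD, n = 3 each), a log2 fold change of -0.47 (SE 0.116). With edgeR p was 0.00482 and the adjusted p-value 0.0597, the lowest of the 34 genes. The DESeq2 adjusted p-value was 0.00779, and the range over all alternatives was 0.00779 to 0.403. Leaving out KO5 gave -0.37 (adjusted p = 0.0766).

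Mns1 (chromosome 9 from 72438011 to 72462025, plus strand) shares exon bases with Tex9 on the opposite strand. The setting for strand in the counting was not given in the sources used here, so that reads from the shared bases could affect the counts of both. Tex9 was higher in all KO mice, with 15.3, 13.5 and 14.8 CPM in the WT mice and 19.5, 18.9 and 17.2 CPM in the KO mice (log2 fold change 0.35, SE 0.0855, edgeR adjusted p = 0.0562). Dnaic1, Ccdc39 and Dnah11 likewise overlap a coding gene on the opposite strand (Enho, Ttc14 and Cdca7l, in that order), and Foxj1 shares exon bases with no other annotated gene. Enho was lower in all KO mice, as Dnaic1 was (log2 fold change -0.54, SE 0.196, edgeR adjusted p = 0.145). Ttc14 and Cdca7l were higher in all KO mice, with log2 fold changes of 0.27 (SE 0.0885) and 0.37 (SE 0.103). The part of reads from shared bases in these values was not tested.

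The tektins and their neighbours differed less between the groups. Tekt1, a filament protein of the doublet, was at 21.7 ± 0.941 CPM in WT and 18.7 ± 3.27 CPM in KO mice. Tekt4 had 10.4, 11.1 and 12.8 CPM in the WT mice and 14.9, 9.08 and 13.4 CPM in the KO mice, so the lowest and the highest mouse were both KO mice, and the log2 fold change was 0.11 (SE 0.190). Cfap52 and Cfap126 had log2 fold changes of -0.03 (SE 0.174) and -0.09 (SE 0.165), and Fam183b had -0.27 (SE 0.172).

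The remaining 7 genes mark ciliated cells without a shared place in the axoneme. Tppp3, a tubulin-binding protein, had 290, 321 and 354 CPM in the WT mice and 290, 212 and 289 CPM in the KO mice. KO4 lay at the bottom of the WT range and KO6 just under it, with a log2 fold change of -0.29 (SE 0.133, edgeR adjusted p = 0.233). Lrriq1 had 6.00, 10.4 and 9.70 CPM in the WT mice and 13.2, 7.51 and 12.8 CPM in the KO mice. KO4 and KO6 were above all WT mice and KO5 was inside their range, with a log2 fold change of 0.35 (SE 0.278, edgeR adjusted p = 0.471).

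Sntn, a protein of the ciliary tip, and Tmem212 had log2 fold changes of 0.00 (SE 0.199 and 0.183). Cdhr3, a cadherin of ciliated cells, had -0.09 (SE 0.142). Ak7, an adenylate kinase of the cilium, had -0.22 (SE 0.145), and 1110017D15Rik had -0.31 (SE 0.184). KO5 was the lowest mouse for 6 of these 7 genes, and Lrriq1 was the exception. Over all 34 genes the KO mice lay wholly below the WT mice for 3 (Foxj1, Dnaic1 and Mns1), a share below the 15.6% of all genes tested, and wholly above for 0, beside 17% of all genes.

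**Figure D2:**
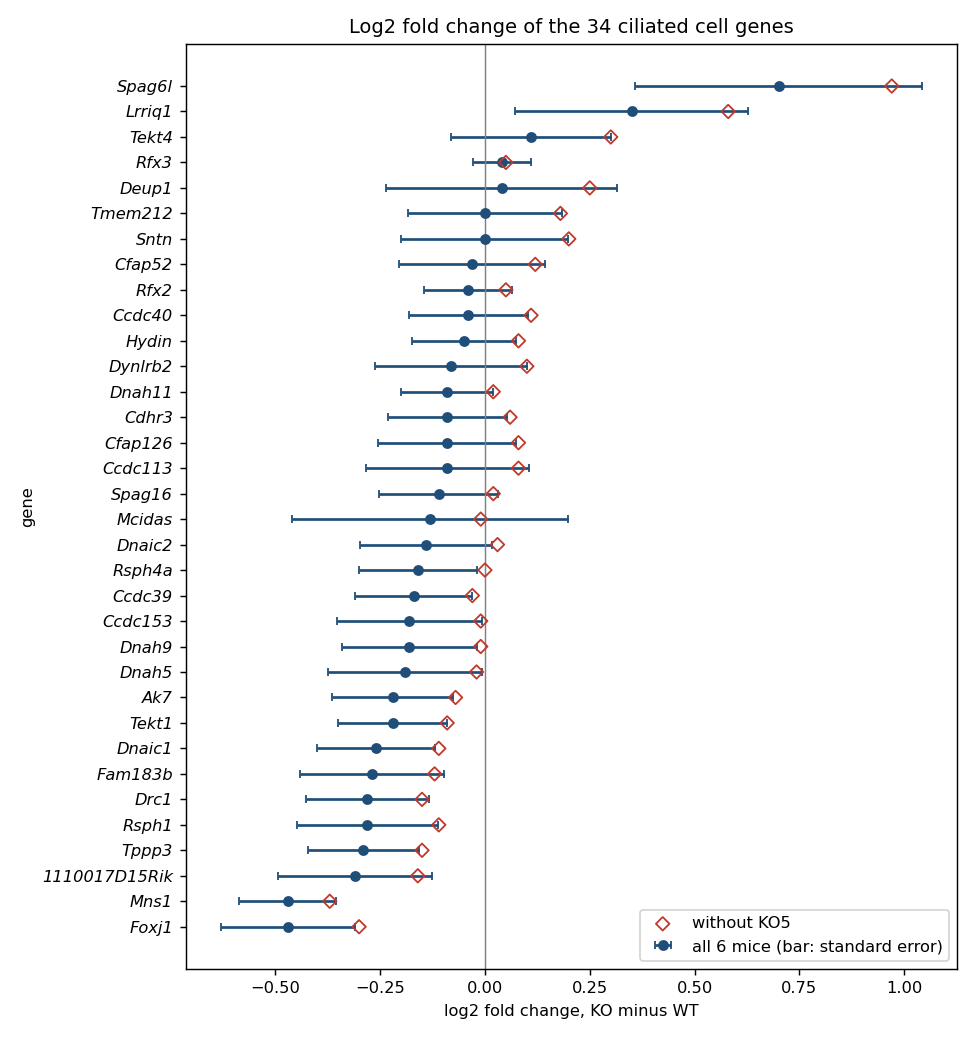
Log2 fold change of KO minus WT (x axis) for the 34 genes (y axis), from edgeR, with all 6 mice (filled circles, bars are standard errors) and without KO5 (open diamonds). Leaving out KO5 moved the genes to the right, so that 18 are above 0, while Foxj1 and Mns1 remained lowest at -0.30 and -0.37.

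In KO5 all roles lay below the WT mean. The median log2 level relative to that mean was -0.56 for the dynein arms, -0.50 for the doublet interior, -0.48 for the rulers and links, -0.46 for the other markers, -0.39 for the spokes and central pair and -0.27 for the program genes. By median the dynein arm genes were thus the lowest role in this mouse and the program genes the nearest to WT, a difference between roles that was not tested. The program genes were spread widely in KO5, with Foxj1 at -0.87, the lowest of the 34 genes, and Rfx3 at 0.01.

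Set against the other ciliated cell genes of the same mouse, Foxj1 and Mns1 were low in all KO mice. For this, the median of the other 33 genes was subtracted from each gene's log2 level relative to the WT mean. Foxj1 was then at -0.03, 0.06 and -0.03 in the WT mice and at -0.36, -0.39 and -0.30 in the KO mice. Mns1 was at 0.01, -0.03 and 0.02 in the WT mice and at -0.40, -0.20 and -0.39 in the KO mice. On this scale KO5 no longer stood apart for Foxj1, whereas for Mns1 it was nearer to the WT mice than KO4 and KO6 were. For both genes the KO mice differed from each other by less than the groups did.

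Of the 34 genes, 5 had all KO mice below all WT mice on this scale (Foxj1, Mns1, Rsph1, Tppp3 and Ak7), beside 1.81% of all genes tested. In the last 3 the mean difference was -0.17, -0.16 and -0.10. Another 4 had all KO mice above all WT mice (the Spag6l row, Lrriq1, Tekt4 and Ccdc40), beside 12.1% of all genes. For Ak7 the groups barely separated, with KO6 at -0.04 and WT5 at -0.03. The scale was set by these genes themselves, and it raised every gene in KO5, where their median was -0.47. The shares of all genes are thus shifted by the scale and are not a like comparison for the 34 genes. These counts are a description without a test. With library sizes scaled to a wider list of motile cilium genes, the log2 fold change of Foxj1 was -0.38 (SE 0.164, edgeR adjusted p = 0.349) and that of Mns1 -0.36 (SE 0.166, adjusted p = 0.403), so the sign held and the test was not passed.

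**Figure D3:**
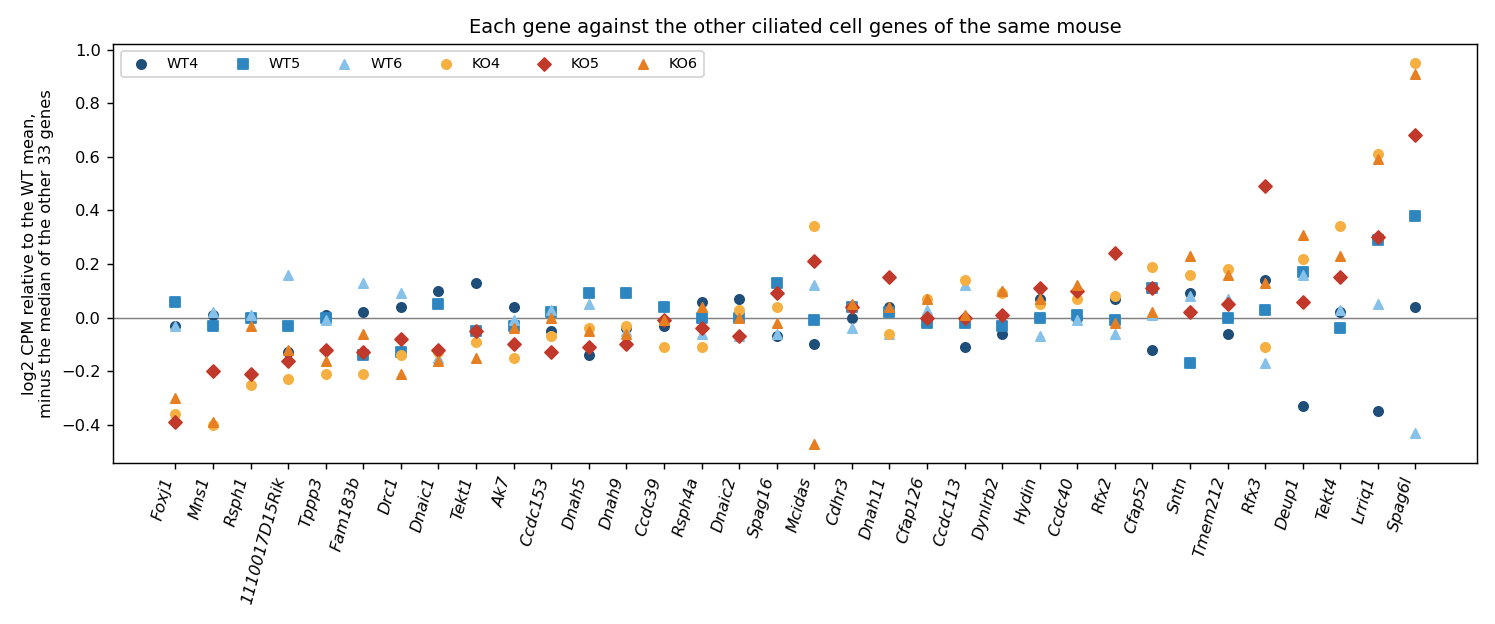
Log2 CPM of each gene relative to its WT mean, minus the median of the other 33 genes in the same mouse (y axis), for WT mice (blues) and KO mice (orange and red), ordered along the x axis by the difference between the group means. Foxj1 and Mns1 are at the left, with KO mice between -0.40 and -0.20, and the row of symbol Spag6l is at the right with the widest spread.

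Levels can be compared between genes only per length of transcript, as RPKM over the exons of each gene. On that scale Tppp3 was the most abundant of the 34 genes in WT mice at 174 RPKM, followed by Dynlrb2 at 57.1, Foxj1 at 54.2, Tmem212 at 49.7 and Ccdc153 at 47.9 RPKM. In KO mice Foxj1 was at 39.3 RPKM and was at rank 5 in place of rank 3, behind Tmem212 and Ccdc153. The long dynein heavy chains were between 2.43 and 6.03 RPKM in WT mice. Lrriq1, Deup1, Mcidas and the Spag6l row were the lowest, at 1.35, 1.24, 0.205 and 0.131 RPKM.

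By median, KO5 was the lowest and WT6 the highest mouse for other genes of the same organelle too. In a wider list of motile cilium genes, 84 of 88 were tested, 1 was lower (beside 2.67% of all genes) and 0 were higher (beside 3.72%) in KO mice, the median log2 fold change was -0.11, and KO5 was the lowest mouse for 78 (92.9%). The gene that fell was Spef1, a microtubule-bundling protein of the central pair, at 40.4, 42.5 and 40.7 CPM in the WT mice and 33.2, 28.3 and 34.4 CPM in the KO mice (log2 fold change -0.37, SE 0.0825, edgeR adjusted p = 0.0461). It was lower in all KO mice, as Foxj1 and Mns1 were. The call of Spef1 was lost with upper-quartile factors, with the replicate block, with the scaling to this list and on leaving out WT4, WT5, WT6, KO4 or KO6, each of which left 0 genes of the list called. Of all genes, 634 were called higher and 455 lower in the main test. These counts were 144 and 110 without WT4, 0 and 1 without WT5, 25 and 38 without WT6 and 74 and 43 without KO6. They were 30 and 36 with the replicate block and 411 and 34 with the scaling to this list. With upper-quartile factors they were 707 and 409, and without KO4 797 and 481. KO mice lay wholly below WT mice for 7 of the 84 genes, beside 15.6% of all genes, and wholly above for 0, beside 17%.

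Intraflagellar transport genes, which carry cargo in both motile and primary cilia and so are used by most cells, were nearer to WT in KO5, with a median log2 level of -0.19 relative to the WT mean against -0.47 for the 34 genes and -0.44 for the wider list. The difference between the lists was not tested. Of 28 tested, 1 was higher (beside 3.72% of all genes) and 0 were lower (beside 2.67%) in KO mice. The higher gene was Ift52, at 34.5 ± 0.340 CPM in WT and 40.5 ± 1.23 CPM in KO mice (log2 fold change 0.23, SE 0.0513, edgeR adjusted p = 0.0468).

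Markers of neighbouring cells also differed from WT in KO5. The club and secretory genes of the airway had a median log2 level of -0.91 in KO5, below that of the ciliated cell genes, with summed levels of 35270, 37320 and 45208 CPM in the WT mice and 36291, 26600 and 33564 CPM in the KO mice. Their defining gene Scgb1a1 was at 28000 ± 4390 and 23400 ± 3490 CPM. Smooth muscle genes were at -0.73, type 2 alveolar genes at -0.35 and type 1 alveolar genes at -0.24 in KO5, cardiac muscle genes at -1.94 and B cell genes at 2.88. The part of these other cells in the level of the ciliated cell genes was not tested. In KO4 and KO6 the ciliated cell genes were at 0.05 and 0.01, smooth muscle genes at -0.44 and -0.34 and B cell genes at 0.87 and 1.12. Type 2 alveolar genes were at -0.04 and -0.16 in KO4 and KO6, and type 1 alveolar genes at -0.09 and -0.24. Cardiac muscle genes varied widely, at -1.16 and 0.89 in KO4 and KO6 and from -0.51 to 0.71 in the WT mice. Monocyte genes were at 1.05, 1.02 and 1.54 in KO4, KO5 and KO6. The club and secretory genes were at -0.03 and -0.09 in KO4 and KO6, and the wider motile cilium list at 0.05 and 0.00. In these 2 mice the ciliated cell genes thus lay near the WT mean, as these lists did, while the smooth muscle and B cell genes did not.

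**Figure D4:**
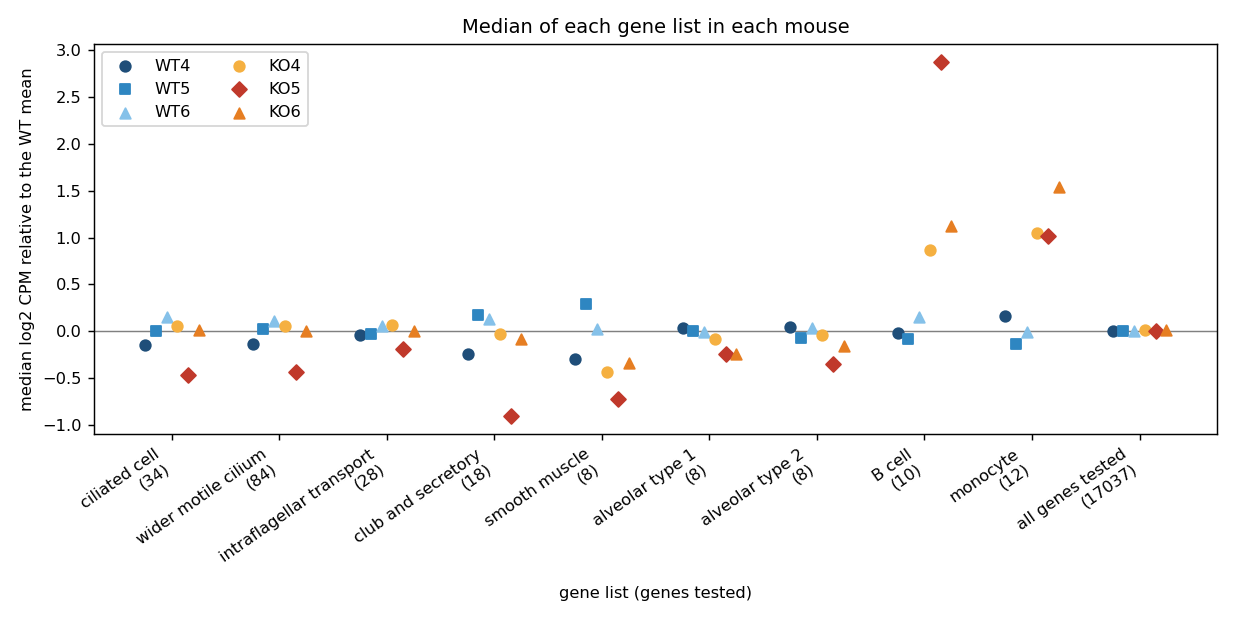
Median log2 CPM relative to the WT mean (y axis) of each gene list (x axis, with the number of genes tested) in each mouse, WT in blues and KO in orange and red. For the 34 ciliated cell genes KO5 is at -0.47 and KO4 and KO6 are near 0, and KO5 is lower still for the club and secretory genes and highest for the B cell genes.

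Of the 34 genes, 7 lie on chromosome 11 with Zpbp2. Dnaic2 was nearest at 16.2 Mb, followed by Foxj1 at 17.8 Mb, Ccdc40 at 20.7 Mb, Tekt1 at 26.2 Mb, Cfap52 at 30.6 Mb, Dnah9 at 32.4 Mb and Fam183b at 39.7 Mb. Their log2 fold changes ran from -0.47 for Foxj1 to -0.03 for Cfap52, and the nearest, Dnaic2, was at -0.14.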

How the data were processed

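Lung RNA of 3 WT and 3 KO mice was analysed, grouped by the sample titles. The authors trimmed the reads with Trimmomatic 0.36, aligned them to GRCm38 with STAR 2.5.3a and counted them with HTSeq 0.6.0 (versions from the submitters' processing notes, which also name Picard 2.9.0). The deposited values are raw read counts per Ensembl gene, without normalization. The annotation release and strand setting are not given in the sources used here. Depth was 19981428 to 46796908 counts per mouse.

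KO was tested against WT in R 4.3.3 with edgeR 4.0.16 (quasi-likelihood test, TMM factors, filterByExpr with a minimum count of 10 and a total of 15, no covariates), with Benjamini-Hochberg adjustment over 17037 genes and a threshold of 0.05. CPM use TMM-scaled library sizes, log2 CPM a prior count of 0.5, and RPKM the exon length from GENCODE mouse release M21. Replicates are separate mice. DESeq2 1.42.0, other scalings and filters, the replicate number as a block and each mouse left out were alternatives. A scaling to the wider motile cilium list was chosen after seeing the data. The edgeR test recovered 92.5% of 200 genes with a simulated log2 fold change of 2 among 17037, with 8.42% false calls. DESeq2 recovered 91% of them, with 19.5% false calls. The 34 genes had log2 fold changes between -0.47 and 0.70, and recovery at such sizes was not simulated.

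The 34 genes, the other lists and the tests were chosen with earlier results of these data known. Named are all 34, genes of the wider cilium and transport lists past the threshold, Zpbp2, and the leading genes of other lists. Python 3.11.15, pandas 2.3.3 and Matplotlib 3.10.9 were used.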

Additional observations from a re-analysis of the deposited data

How the results depend on the processing

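Of the 34 genes, 0 passed the adjusted p-value under edgeR with DESeq2 size factors or upper-quartile factors, with at least 10 counts in every library, with the replicate block, scaled to the wider list, or with any mouse left out. Without a filter 1 passed (Mns1, beside 4.89% of all genes) and with DESeq2 2 (Mns1 and Foxj1). None passed both thresholds under any alternative. The median log2 fold change stayed between -0.13 and -0.11 under the other counts-based settings, was -0.01 when scaled to the wider list, and ran from -0.23 to 0.02 with single mice left out; it was above 0 only without KO5. The wider list had 0 genes called with upper-quartile factors, the replicate block or its own scaling, 2 without a filter and 2 with DESeq2, and 0 to 1 with single mice left out, 1 only without KO5. The scaling to the wider list moved the median of all genes from 0.00 to 0.117 on the log2 scale. With that scaling the sign changed for Rfx2 (0.06), Mcidas (0.02), Dnah11 (0.01), Dynlrb2 (0.02), Ccdc40 (0.05), Ccdc113 (0.00), Hydin (0.04), Cfap52 (0.06), Cfap126 (0.00), Tmem212 (0.09) and Cdhr3 (0.00). It changed for Sntn without a filter and with the block (-0.01 in both), and for Tmem212 with upper-quartile factors (0.01), at least 10 counts (0.00) and DESeq2 (0.00). With mice left out, signs changed within -0.13 to 0.05 for Rfx2, -0.01 to 0.07 for Rfx3, -0.38 to 0.00 for Mcidas, -0.16 to 0.25 for Deup1, -0.16 to 0.02 for Dnah11, -0.26 to 0.03 for Dnaic2, -0.18 to 0.10 for Dynlrb2, -0.13 to 0.11 for Ccdc40, -0.24 to 0.08 for Ccdc113, -0.13 to 0.08 for Hydin, -0.21 to 0.02 for Spag16, -0.04 to 0.30 for Tekt4, -0.18 to 0.12 for Cfap52, -0.19 to 0.08 for Cfap126, -0.12 to 0.20 for Sntn, -0.12 to 0.18 for Tmem212 and -0.18 to 0.06 for Cdhr3. The cause was not tested. Of 440 values of single genes under the alternatives, 394 kept their sign, and 17 genes kept it throughout. DESeq2 gave no adjusted p-value for Mcidas and the Spag6l row. Mice with the same number did not vary together (correlations of -0.0266, -0.146 and -0.0207, with 0 numbers best matched to their own), so the pairing was not used. The replicate block gave a median of -0.11 and called 30 genes higher and 36 lower of all genes, against 634 and 455 without it. Without WT5, 1 gene of all was called. Below about 20 counts per mouse, as for Mcidas and the Spag6l row, counting error limits what can be seen.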

Other observations

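Other genes of the multiciliated fate and of basal body production, named after their values were seen, did not move alike. They belong to the wider motile cilium list, where KO mice lay wholly below WT mice for 7 of 84 genes, beside 15.6% of all genes. Gmnc, which acts at the start of the program, had 95, 103 and 172 counts in the WT mice and 53, 86 and 63 counts in the KO mice, or 4.77 ± 0.880 and 2.5 ± 0.658 CPM (SD, n = 3 each). The groups did not overlap, with a log2 fold change of -0.95 (SE 0.243, adjusted p = 0.0629 in edgeR's quasi-likelihood test). Ccno, which acts in basal body production, was at 2.9 ± 0.299 and 1.91 ± 0.448 CPM (log2 fold change -0.62, SE 0.211, edgeR adjusted p = 0.125), again without overlap. Ccdc78, a basal body factor, was at 25.1 ± 1.35 and 18.7 ± 4.22 CPM (-0.43, SE 0.162, edgeR adjusted p = 0.152), without overlap. Myb, Trp73 and Foxn4 had overlapping groups and log2 fold changes of -0.04 (SE 0.107), -0.17 (SE 0.135) and -0.34 (SE 0.398).

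Genes of rarer airway cells and of cartilage were tested in part. Of 7 basal cell genes 3 were tested, and Ngfr was at 5.27 CPM in KO5 against 1.05 to 1.83 CPM in the other mice. The other basal cell genes tested were not raised in KO5. Trp63 was at 0.713 CPM there (0.485 to 1.58 in the other mice) and Aqp3 at 1.07 CPM (0.765 to 3.51). Of 8 neuroendocrine genes 7 were tested, and Calca was at 1.41 ± 0.707 CPM in WT and 0.560 ± 0.244 CPM in KO mice (log2 fold change -1.43, SE 0.454, edgeR adjusted p = 0.107). Calca had the lowest log2 fold change of these genes, whose median was -0.26, with Uchl1 at -0.26 and Syp at -0.04. Of 9 airway cartilage genes 3 were tested, and Chad was at 13.6 CPM in KO5 against 22.4 to 31.1 CPM in the other mice. The other cartilage genes tested, Cytl1 and Col9a3, were not lowest in KO5. The median log2 level of the cartilage genes in KO5 was -0.06 relative to the WT mean. In the monocyte list 10 of 12 genes were higher in KO mice, beside 3.72% of all genes. Of 18 club and secretory genes 1 was lower and of 8 type 1 alveolar genes 1 was lower, beside 2.67% of all genes, and 0 were higher. Aldh1a1, the club and secretory gene, was at 1510 ± 162 and 1130 ± 74.6 CPM (-0.43, SE 0.0944, edgeR adjusted p = 0.0446). Rtkn2, the type 1 alveolar gene, was at 303 ± 19.9 and 229 ± 4.19 CPM (-0.40, SE 0.0618, edgeR adjusted p = 0.0211). KO mice lay wholly below WT mice for 6 of the 8 type 1 alveolar genes and 4 of the 18 club and secretory genes, beside 15.6% of all genes.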
